A study of Mus musculus with 4 samples.

Results

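RNA of the lower eyelid was compared between the male library of 2 years, titled M2y, and the male library of 3 months, titled M3m. All 4 libraries of the series came from C57BL/6 mice, an inbred strain, of wild-type genotype, and the labels name no treatment or engineered allele. The other libraries were the female libraries of 2 years (F2y) and 3 months (F3m), whose values are set beside the male ones below. The series addresses the ageing of the meibomian gland, and the whole frozen lid was extracted, so gland, skin, conjunctiva, muscle and dermis could all contribute RNA. Each age and sex had 1 library, and the number of animals behind it is not stated. There is therefore no spread between replicates for M2y or M3m, and every difference below is a difference between these 2 libraries, with no test.

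Members were all genes listed in the 4 deposited tables with a mean of at least 1 RPKM (reads per kilobase of gene, scaled to the library total), which left 12073 of the 15816 genes listed in at least 1 table. The measure was the log2 ratio of M2y over M3m after 1 RPKM was added to both values, which understates the difference of low genes. The tables listed 15006 genes in M2y and 14892 in M3m, with summed coverage of 3.91 and 3.82 gigabases. In F2y and F3m it was 3.16 and 3.78 gigabases, so F2y was the shallowest library. Markers of the lid were present in both male libraries. The gland marker Scd1, a fatty acid desaturase, had 3028 RPKM in M2y and 3968 RPKM in M3m. The conjunctival keratin Krt13 had 3080.5 RPKM in M2y and 2286 RPKM in M3m, and the muscle actin Acta1 149 RPKM in M2y and 51.1 RPKM in M3m. Krt5, a keratin of basal epithelium, was at 3350.0 RPKM in M2y and 3213 RPKM in M3m. The sex labels fitted the Y-linked genes: Ddx3y had 16.4 RPKM in M2y and 13.5 RPKM in M3m, and neither table listed Xist, the transcript that silences an X chromosome in females.

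The lid margin is a junction of tissues. Meibomian acini fill with lipid and burst to release it, a holocrine secretion that coats the tear film. The skin side makes a cornified envelope of cross-linked proteins, the conjunctival side secretes mucins and antimicrobial proteins, and the orbicularis and associated striated fibres close the lid and compress the glands. In ageing skin and muscle, changes of fibre content, matrix and resident immune cells are commonly described.

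The male libraries were close to each other. The log2 ratio had a median of -0.014, an SD over genes of 0.27 and a 5th to 95th percentile range of -0.39 to 0.40. Past a 2-fold difference lay 121 genes, of which 96 were higher in M2y (0.795% of those analysed) and 25 lower (0.207%). The 96 higher genes had a median of 14.1 RPKM in M2y and 4.46 RPKM in M3m, and 36 of the 96 had under 2 RPKM in M3m. The 25 lower genes had a median of 4.48 RPKM in M2y and 12.9 RPKM in M3m. Skeletal muscle genes made up 34 of the 96 higher genes (35.4%), and no other group of lists held as many. With 5 RPKM added in place of 1 RPKM, 39 of the 96 and 11 of the 25 stayed past 2-fold, and 16 of the 34 muscle genes did.

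**Figure D1:**
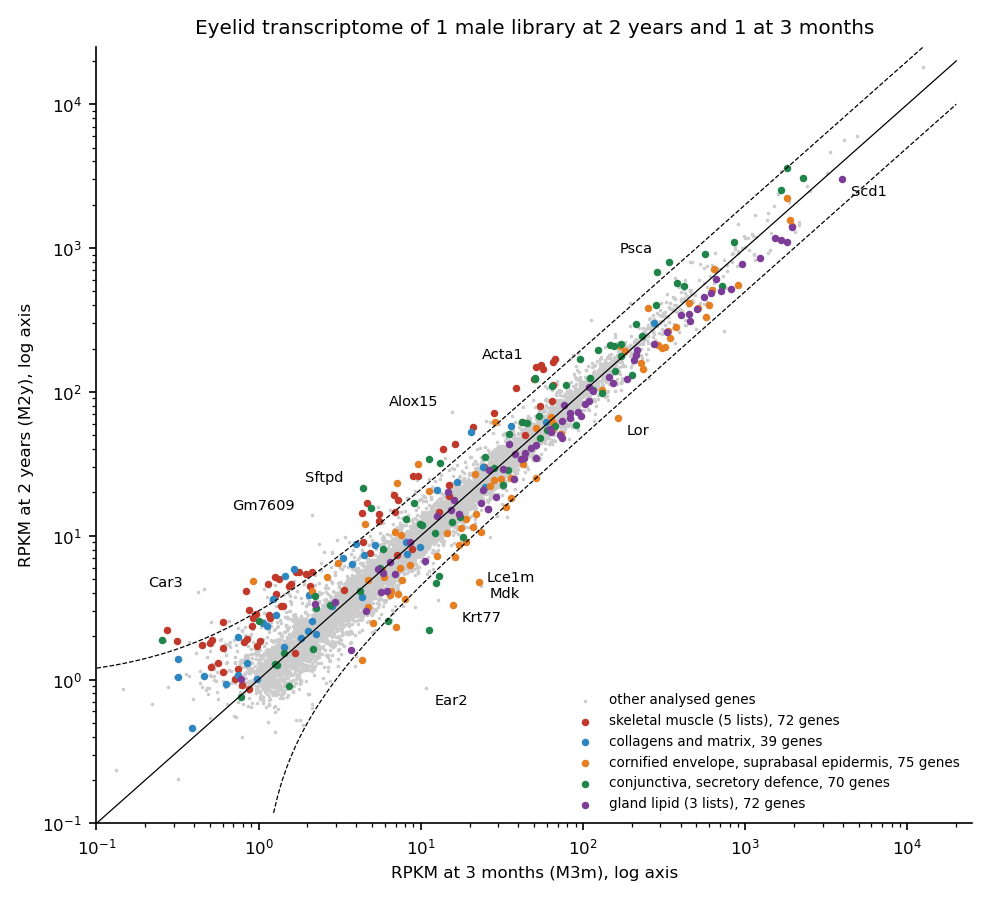
Each point is 1 of the 12073 analysed genes, with its RPKM in M2y on the vertical log axis and in M3m on the horizontal log axis. The solid line marks equal values, the dashed lines a 2-fold difference after 1 RPKM is added, and colours mark lists of genes. Of the 72 muscle genes 69 sit above the diagonal, and gland lipid genes lie slightly below it at the high end.

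The muscle genes were higher in M2y across nearly the whole of 5 lists that cover the contractile apparatus, its calcium handling and its energy supply. Of 97 listed genes 72 were analysed, and 69 were higher in M2y (47.0% of all analysed genes were higher by any amount), 51 of them at least 1.5-fold (2.69% of all analysed genes) and 34 at least 2-fold. Their median log2 ratio was 0.96, against -0.014 over all analysed genes. Summed over the 72 genes, muscle transcripts came to 1942 RPKM in M2y and 888 RPKM in M3m. In a whole lid, more fibres in the piece cut out and more RNA per fibre cannot be told apart, nor can fewer cells of a type and less RNA per cell in any result that follows.

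The fast-fibre list had the highest median of the 5 muscle lists on the scale with 1 RPKM added, which understates low genes. Fast and slow fibres use different isoforms of myosin and of the troponin complex that gates contraction by calcium. Myh4, the myosin heavy chain of the fastest fibres, had 56.9 RPKM in M2y and 21.1 RPKM in M3m. Tnnt3, the fast troponin T, had 153 RPKM in M2y and 55.4 RPKM in M3m. Myh1, another fast myosin heavy chain, stood at 4.13 RPKM in M2y and 0.833 RPKM in M3m; its log2 ratio of 1.48 was 0.65 with 5 RPKM added. All 12 analysed fast-fibre genes were higher in M2y, 9 of them at least 2-fold, with a median of 1.32. Tnnc2, the fast troponin C (169 RPKM in M2y and 66.7 RPKM in M3m), is the least certain of these, since 78.3% of its longest transcript is shared with the overlapping gene Ube2c. Among slow-fibre genes only 4 of 11 were analysed, of which 3 were higher in M2y and 2 at least 2-fold (median 0.66). Mybpc1, a myosin-binding protein, had 5.16 RPKM in M2y and 1.27 RPKM in M3m, and Csrp3 1.86 RPKM in M2y and 0.314 RPKM in M3m. The slow troponin I Tnni1 had 1.54 RPKM in M2y and 1.69 RPKM in M3m. Without the added RPKM, M2y over M3m was 4.07 for Mybpc1, 5.92 for Csrp3, 1.14 for Tpm3 and 0.91 for Tnni1. On that scale Tnnt3 had 2.75, Myh4 2.70 and Myh1 4.96. Myh7, the slow myosin heavy chain, was not listed in any of the 4 tables, and Myh2, the intermediate myosin heavy chain, was listed in M2y at 0.661 RPKM and not in M3m.

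The frame of the sarcomere and the membrane system went the same way. Acta1, skeletal muscle actin (chromosome 8, 123891758 to 123894775, mm10), had a log2 ratio of 1.53. Its Z-disc neighbours Tcap (telethonin, 40.3 RPKM in M2y and 13.7 RPKM in M3m) and Des (desmin, 26.1 RPKM in M2y and 8.97 RPKM in M3m) had log2 ratios of 1.49 and 1.44. Of the 18 frame and Z-disc genes 17 were higher in M2y and 10 at least 2-fold. Atp2a1, the calcium pump that refills the sarcoplasmic reticulum of fast fibres, had 107 RPKM in M2y and 38.7 RPKM in M3m, a log2 ratio of 1.45. Casq1, the calcium store of that compartment, had 17.8 RPKM in M2y and 7.27 RPKM in M3m, and Sln, a small inhibitor of the pump, 2.21 RPKM in M2y and 0.271 RPKM in M3m. The Sln value rests on a coverage of 5000 bases in M2y and 600 bases in M3m, and its log2 ratio of 1.33 was 0.45 with 5 RPKM added. Coverage was a whole multiple of 100 bases in about 1 in 5 genes under 10000 bases (21.4% in M2y and 21.0% in M3m, where evenly spread digits give 1%), so 600 bases would be few reads if a read covers 100 bases; the read length is not stated.

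All 19 energy-supply genes were higher in M2y. Mb, the oxygen-binding myoglobin, had the largest log2 ratio of the list, 1.67, with 16.9 RPKM in M2y and 4.64 RPKM in M3m. Ckm, muscle creatine kinase, had 123 RPKM in M2y and 49.6 RPKM in M3m, and Eno3, muscle enolase, 43.5 RPKM in M2y and 16.4 RPKM in M3m. The respiratory chain, shared by all tissues, stood near 0: its 72 analysed genes had a median of 0.044. Of 20 listed genes of denervated or newborn muscle and of the neuromuscular junction 6 were analysed, 2 of them higher in M2y, with a median of -0.10 that turned to 0.021 over 8 genes without the filter on the mean. Actc1, the cardiac and embryonic muscle actin, had 1.49 RPKM in M2y and 0.863 RPKM in M3m. Myl4, an embryonic myosin light chain, and Trim63, a ubiquitin ligase, were not analysed; Myl4 was listed at 0.545 RPKM in M2y and 0.179 RPKM in M3m, and Trim63 at 0.738 RPKM in M2y and 0.373 RPKM in M3m. On the lower side, Dok7, which organises the neuromuscular junction, had 1.48 RPKM in M2y and 2.67 RPKM in M3m, and Fbxo32, a ubiquitin ligase of atrophying muscle, 22.2 RPKM in M2y and 24.98 RPKM in M3m.

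Sequences just upstream of muscle genes are shown because these genes were higher together and the class of motif they carry can be read directly. The 250 bases before the start site were taken from RefSeq (GRCm38.p6, the build also called mm10), on the strand of the gene, and searched on both strands for the E-box CAGCTG, for the CArG box of serum response factor and for the site of MEF2, by name. No overlap between motifs was removed. A CAGCTG stood in 30 of the 52 muscle genes matched in that table (57.7%), in 16 of the 24 matched genes that were at least 2-fold higher in M2y (66.7%), and in 14.7% of all 27025 promoters. A MEF2 site stood in 15.4% of the 52 and 3.42% of all, and a CArG box in 7.69% and 1.62%. Below, capitals mark CAGCTG, and in Acta1 also the CArG box, which lies at bases -73 to -64 counted from the start.
Acta1, chr8:123894776-123895025, minus strand: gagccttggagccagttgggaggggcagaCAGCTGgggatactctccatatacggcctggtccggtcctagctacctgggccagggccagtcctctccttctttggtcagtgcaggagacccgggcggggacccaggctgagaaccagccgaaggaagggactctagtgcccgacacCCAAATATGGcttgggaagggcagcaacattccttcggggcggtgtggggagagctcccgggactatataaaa
Mylpf, chr7:127211358-127211607, plus strand: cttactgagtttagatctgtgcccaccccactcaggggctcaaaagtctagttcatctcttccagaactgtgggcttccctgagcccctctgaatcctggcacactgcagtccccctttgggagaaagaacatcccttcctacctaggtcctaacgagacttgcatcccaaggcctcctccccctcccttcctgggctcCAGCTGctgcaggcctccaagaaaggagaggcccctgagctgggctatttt
Atp2a1, chr7:126463074-126463323, minus strand: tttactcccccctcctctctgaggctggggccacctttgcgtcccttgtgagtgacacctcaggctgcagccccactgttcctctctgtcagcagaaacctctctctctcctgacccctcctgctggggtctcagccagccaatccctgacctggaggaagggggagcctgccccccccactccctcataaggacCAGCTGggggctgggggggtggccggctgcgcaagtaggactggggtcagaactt
Mylpf encodes the fast regulatory myosin light chain and had 144 RPKM in M2y and 57.01 RPKM in M3m. Its CAGCTG lies at bases -51 to -46, and that of Atp2a1 at -55 to -50. A match of letters is a description and does not show that a factor binds.

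Smooth muscle and matrix genes were also mostly higher in M2y, by less on the whole. Smooth muscle lines vessels and ducts, and 4 of its 10 analysed genes were at least 2-fold higher (0.795% of all analysed genes). Acta2, smooth muscle actin, had 19.9 RPKM in M2y and 9.16 RPKM in M3m. Myh11, the smooth muscle myosin heavy chain, had 4.83 RPKM in M2y and 1.66 RPKM in M3m, and Actg2, another smooth muscle actin, 5.46 RPKM in M2y and 1.75 RPKM in M3m. Summed, the list came to 90.7 RPKM in M2y and 67.3 RPKM in M3m.

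Among matrix genes 2 small proteoglycans that coat collagen fibrils, Dcn and Lum, and the matrix protein gene Dpt stood out. Dcn (decorin) had 52.9 RPKM in M2y and 20.4 RPKM in M3m, Lum (lumican) 5.28 RPKM in M2y and 1.46 RPKM in M3m and Dpt (dermatopontin) 5.88 RPKM in M2y and 1.66 RPKM in M3m, with log2 ratios of 1.33, 1.35 and 1.37. With 5 RPKM added, those of Lum and Dpt were 0.67 and 0.71. Of 27 analysed proteoglycan and elastic fibre genes 24 were higher in M2y, 13 at least 1.5-fold and 4 at least 2-fold (median 0.49). No collagen reached 2-fold with 1 RPKM added, where 0.795% of all analysed genes were at least 2-fold higher. Without the added RPKM, M2y over M3m was 2.19 for Col1a2, 2.08 for Col1a1, 2.67 for Col6a2 and 2.12 for Col6a1. Col1a1, a chain of the main fibrillar collagen, had 6.95 RPKM in M2y and 3.34 RPKM in M3m. Its partner chain Col1a2 had 8.73 RPKM in M2y and 3.99 RPKM in M3m, and 10 of 12 collagens were higher. Of the metalloproteases that degrade matrix, Mmp3 (stromelysin) was higher, with 4.27 RPKM in M2y and 1.07 RPKM in M3m, and Mmp12, the elastase of macrophages, lower, with 3.19 RPKM in M2y and 9.21 RPKM in M3m.

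Complement and vessel genes each held 1 member at least 2-fold higher in M2y, where 0.795% of all analysed genes were. Serping1, the inhibitor of the first complement component, had 9.77 RPKM in M2y and 3.43 RPKM in M3m, and 15 of 17 analysed complement genes were higher in M2y (median 0.39). Aqp1, a water channel of vessels and other cells, had 5.67 RPKM in M2y and 1.65 RPKM in M3m. Of 24 listed endothelial genes 8 were analysed and 5 were higher in M2y (47.0% of all analysed genes were higher), with a median of 0.25. A 1.5-fold difference was reached by 1 on the higher side and 1 on the lower side. The defining endothelial genes did not all go the way of Aqp1. Pecam1 had 1.31 RPKM in M2y and 0.720 RPKM in M3m. Flt1, a receptor for vascular growth factor, had 2.91 RPKM in M2y and 4.88 RPKM in M3m. The part that muscle content of the lids played in the matrix and vessel values was not tested.

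**Figure D2:**
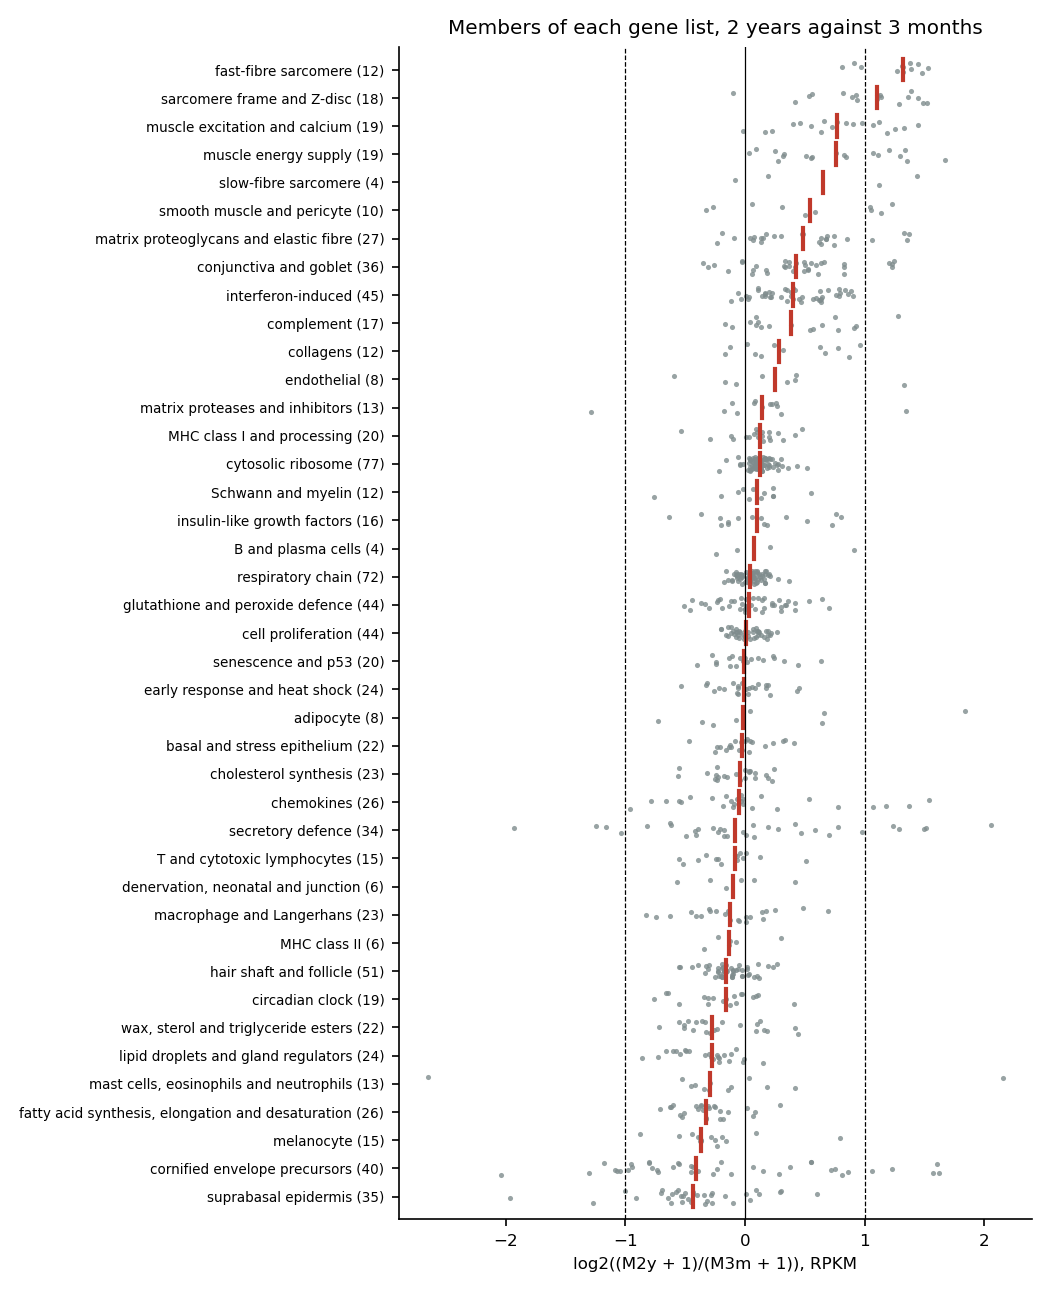
Each grey point is the log2 ratio of M2y over M3m of 1 analysed gene, rows are gene lists with the number analysed, and red bars are list medians. Lists run from the fast-fibre genes at the top (median 1.32) to the suprabasal epidermis at the bottom (median -0.44), and dashed lines mark 2-fold.

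The mucosal and secretory genes of the lid held several of the most abundant differences. Of 36 analysed conjunctiva and goblet genes 30 were higher in M2y, 11 at least 1.5-fold and 4 at least 2-fold, with a median of 0.42. Over all analysed genes those shares were 47.0%, 2.69% and 0.795%. Psca, a surface glycoprotein of stratified epithelia (chromosome 15, 74714839 to 74717065), had 803 RPKM in M2y and 341 RPKM in M3m. Fcgbp, a mucin-associated protein of goblet cells, had 122 RPKM in M2y and 50.7 RPKM in M3m, and Clca4, of a family of secreted chloride-channel regulators, 32.04 RPKM in M2y and 13.1 RPKM in M3m. The goblet peptide Tff2 was near the lower end, with 1.89 RPKM in M2y and 0.253 RPKM in M3m, on a coverage of 4714 bases in M2y and 614 bases in M3m. The conjunctival keratins Krt13 and Krt4 had log2 ratios of 0.43 and 0.61, below 2-fold. The summed level of the list was 11258 RPKM in M2y and 7882 RPKM in M3m. How far the amount of conjunctiva in each lid enters the values of its genes was not tested.

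Secretory defence genes split, with 5 of 34 analysed past 2-fold on the higher side and 4 on the lower side (median -0.084). Of all analysed genes 0.795% lay past 2-fold on the higher side and 0.207% on the lower side. Sftpd, a collectin that binds microbial sugars (chromosome 14, 41172212 to 41185198), had 21.4 RPKM in M2y and 4.39 RPKM in M3m, a log2 ratio of 2.06. Ltf, the iron-binding lactoferrin of tears, had 679 RPKM in M2y and 287 RPKM in M3m. Reg3g, a lectin active against Gram-positive bacteria, had 125 RPKM in M2y and 50.7 RPKM in M3m. These 3 genes were higher in M2y, as were Ceacam10, a secreted member of the carcinoembryonic antigen family (34.1 RPKM in M2y and 11.3 RPKM in M3m), and the secretoglobin Scgb2b2 (15.7 RPKM in M2y and 4.92 RPKM in M3m). On the other side, Wfdc21, a small whey-acidic protein, had 2.20 RPKM in M2y and 11.2 RPKM in M3m. Hp, the haemoglobin-binding haptoglobin, had 4.68 RPKM in M2y and 12.4 RPKM in M3m. Saa1, an acute-phase serum amyloid, had 5.21 RPKM in M2y and 12.9 RPKM in M3m, and its close relative Saa2 2.55 RPKM in M2y and 6.30 RPKM in M3m. Haptoglobin and the serum amyloids, all acute-phase proteins, were thus 3 of the 4 lower genes. The whey-acidic family of Wfdc21 was mixed, with 4 of 9 analysed genes higher and a median of -0.018; Wfdc17, on no list, had 7.69 RPKM in M2y and 2.84 RPKM in M3m.

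Other genes on no list, several of them for secreted proteins, were also apart. Esp6, an exocrine-gland peptide, had 314 RPKM in M2y and 111 RPKM in M3m, and Crisp3, a cysteine-rich protein of glands, 4.56 RPKM in M2y and 1.26 RPKM in M3m. BC100530, a cysteine protease inhibitor of the stefin A family, was among the most abundant RNAs of the lid, with 3436 RPKM in M2y and 1659 RPKM in M3m; 68.0% of its longest transcript is shared at 97% identity or more with Stfa1, so these members may share reads. Aqp4, a water channel of glandular epithelium, had 34.5 RPKM in M2y and 14.1 RPKM in M3m, and Apod, a lipid-binding lipocalin, 7.71 RPKM in M2y and 2.52 RPKM in M3m.

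Immune signals were mixed, and few genes carried them. Alox15, the lipoxygenase that makes lipid mediators in eosinophils, macrophages and epithelium (chromosome 11, 70344147 to 70352031), had 72.6 RPKM in M2y and 15.5 RPKM in M3m, a log2 ratio of 2.16. Il33, an alarmin released by damaged epithelium, had 62.7 RPKM in M2y and 25.2 RPKM in M3m. Arg1, the arginase of epidermis and of alternatively activated macrophages, had 412 RPKM in M2y and 194 RPKM in M3m. Csf3, the growth factor of neutrophils, had 15.1 RPKM in M2y and 6.48 RPKM in M3m. These genes were all at least 2-fold higher in M2y, as were 4 of 26 chemokines (0.795% of all analysed genes). By any amount 9 of the 26 chemokines were higher and 17 lower. Ccl8 had 8.71 RPKM in M2y and 2.35 RPKM in M3m, Ccl28, a mucosal chemokine, 9.40 RPKM in M2y and 3.02 RPKM in M3m, and Cxcl5, which attracts neutrophils, 24.8 RPKM in M2y and 11.3 RPKM in M3m; Ccl11, the eosinophil attractant, had 1.86 RPKM in M2y and 0.263 RPKM in M3m on a coverage of 8700 bases in M2y and 1200 bases in M3m. The chemokine list as a whole had a median of -0.049.

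Medians of the immune cell lists lay below 0, except that of B and plasma cells (0.073 over 4 genes). Mast cell, eosinophil and neutrophil genes had the lowest of them, -0.29, with 9 of 13 lower in M2y. Macrophage and Langerhans markers had 9 of 23 higher in M2y (median -0.12), T-cell markers a median of -0.086 and MHC class II genes -0.13. Lyz2, the lysozyme of myeloid cells, had 58.4 RPKM in M2y and 90.6 RPKM in M3m, and Cd207 (langerin), which defines Langerhans cells, 0.525 RPKM in M2y and 1.70 RPKM in M3m. Cd14, the lipopolysaccharide co-receptor, went the other way, with 26.2 RPKM in M2y and 15.7 RPKM in M3m. The summed level of the macrophage and Langerhans list was higher in M2y, 4968 RPKM in M2y and 3689.6 RPKM in M3m, most of it from Cbr2, a carbonyl reductase named here after its values were seen (4646 RPKM in M2y and 3318 RPKM in M3m). With 1 RPKM added, the largest lower log2 ratio was that of Ear2, a ribonuclease of eosinophils (chromosome 14, 44102654 to 44103531), with 0.868 RPKM in M2y and 10.7 RPKM in M3m, a log2 ratio of -2.65. Its coverage was 927 bases in M2y and 11189 bases in M3m, the log2 ratio was -1.42 with 5 RPKM added, and 65.5% of its longest transcript is shared with Ear10. Spp1 (osteopontin), a secreted protein of macrophages and bone, had 3.56 RPKM in M2y and 12.7 RPKM in M3m, and Mdk (midkine), a heparin-binding growth factor, 4.48 RPKM in M2y and 23.6 RPKM in M3m. With 5 RPKM added Mdk had the largest lower log2 ratio, -1.59.

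Interferon-induced genes were higher as a list. None reached 2-fold with 1 RPKM added, where 0.795% of all analysed genes were at least 2-fold higher. Of 45 analysed 42 were higher in M2y and 16 were at least 1.5-fold higher, with a median of 0.40. Over all analysed genes those shares were 47.0% and 2.69%. Oasl1, of the Oas and Oasl family, had 28.9 RPKM in M2y and 14.96 RPKM in M3m. Ifit1, which binds foreign RNA caps, had 14.6 RPKM in M2y and 7.58 RPKM in M3m, and Zbp1, a nucleic acid sensor, 7.91 RPKM in M2y and 3.82 RPKM in M3m. Ifi47, an interferon-inducible GTPase on no list, had 18.3 RPKM in M2y and 8.16 RPKM in M3m and passed 2-fold. The interferon response motif, 2 copies of GAAA set 2 bases apart, stood within 250 bases upstream in 17 of the 34 interferon genes matched in the RefSeq table (50%), against 3.46% of all promoters in that table and 0 of the 52 muscle genes. In the promoter of Ifit1, shown as the example, it lies at 2 places on the minus strand, bases -104 to -95 and -85 to -76, so the capitals read as its reverse complement.
Ifit1, chr19:34640639-34640888, plus strand: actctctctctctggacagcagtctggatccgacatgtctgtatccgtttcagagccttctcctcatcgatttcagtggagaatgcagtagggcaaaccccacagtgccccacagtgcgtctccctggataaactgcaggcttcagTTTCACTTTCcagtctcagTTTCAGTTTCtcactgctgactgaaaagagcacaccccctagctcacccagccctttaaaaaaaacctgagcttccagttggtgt
The proteasome and antigen-loading genes of MHC class I, which interferon also induces, had 16 of 20 higher and a median of 0.13.

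**Figure D3:**
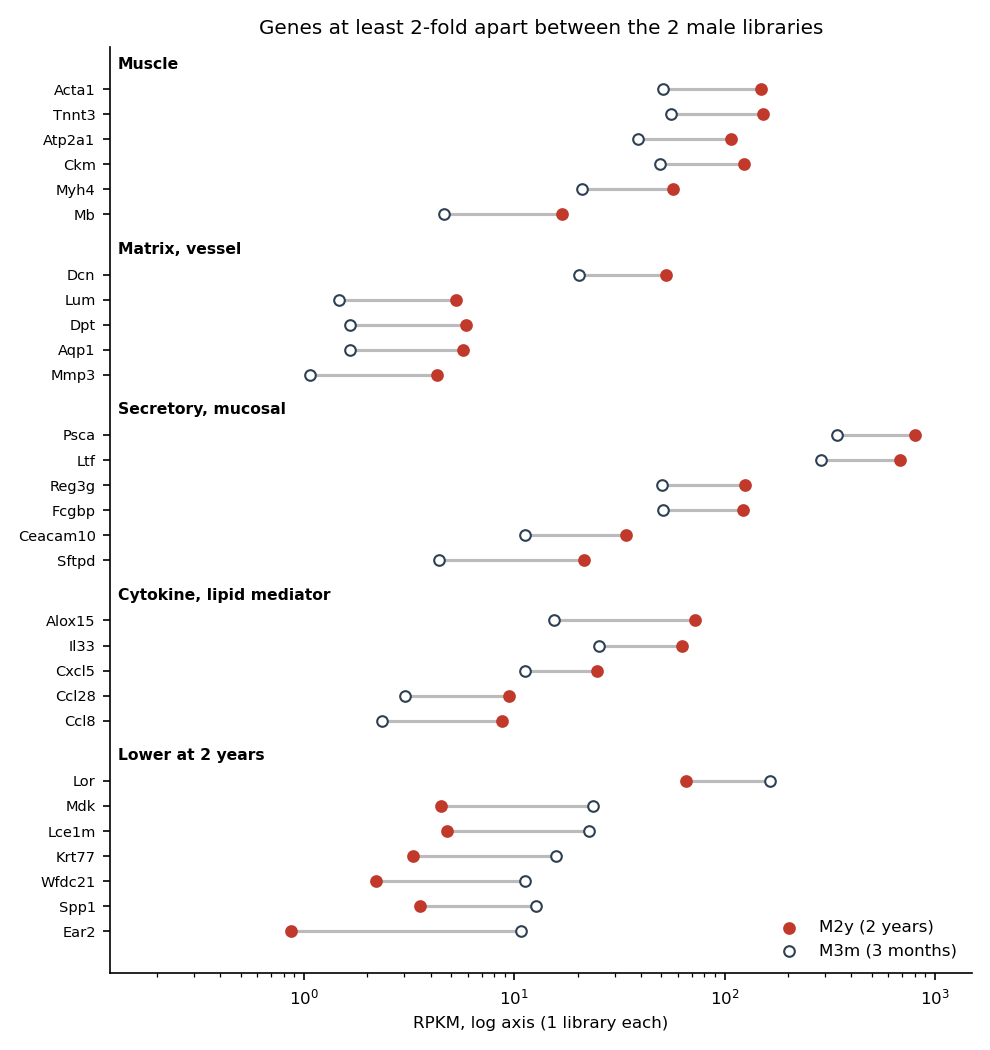
RPKM of 29 genes that were at least 2-fold apart, on a log axis, with filled red points for M2y and open points for M3m, 1 library each. In the top 4 groups each red point lies to the right, and in the group lower at 2 years each lies to the left.

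The cornified envelope genes went in both directions. These genes stand in a cluster on chromosome 3 and encode the proteins that transglutaminases cross-link under the surface of dead keratinocytes. Lor (loricrin), the main envelope protein, had 65.8 RPKM in M2y and 164 RPKM in M3m. Of 40 analysed precursors 6 were at least 2-fold lower and 5 at least 2-fold higher (median -0.41). Over all analysed genes those shares were 0.207% and 0.795%. The split ran along gene families, which were gathered after the values had been seen and are given as a description. All 13 analysed Lce1 genes were lower in M2y, with log2 ratios between -2.04 and -0.27 and a median of -0.80. All 6 Lce3 genes were higher, with a median of 1.15 and a maximum of 1.61.

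Both families encode late cornified envelope proteins. Lce1 genes are expressed in normal skin, and in human skin LCE3 genes are known for induction after barrier injury. Lce1m (chromosome 3, 93017807 to 93019060) had 4.79 RPKM in M2y and 22.8 RPKM in M3m, the largest difference of its family. Within the same stretch, Lce3a (chromosome 3, 92925287 to 92926230) had 61.4 RPKM in M2y and 28.8 RPKM in M3m and Lce3d (chromosome 3, 92957390 to 92958574) 4.87 RPKM in M2y and 0.924 RPKM in M3m. The log2 ratio of Lce3d was 1.61, and 0.74 with 5 RPKM added. Summed, the Lce1 genes came to 109 RPKM in M2y and 218 RPKM in M3m, and the Lce3 genes to 129 RPKM in M2y and 55.8 RPKM in M3m. Lce3a, Lce3c and Lce3d share over 57% of their longest transcripts with Lce3f at 97% identity or more, so levels of single Lce3 genes are less certain than their sum. Of the 10 analysed small proline-rich genes (Sprr) 7 were higher in M2y, led by Sprr1b, a stress-induced precursor, with 31.5 RPKM in M2y and 9.57 RPKM in M3m. Their sum went the other way, with 2107 RPKM in M2y and 2774 RPKM in M3m. The abundant Sprr1a had 1420 RPKM in M2y and 1936 RPKM in M3m, and Sprr4 333 RPKM in M2y and 569 RPKM in M3m.

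**Figure D4:**
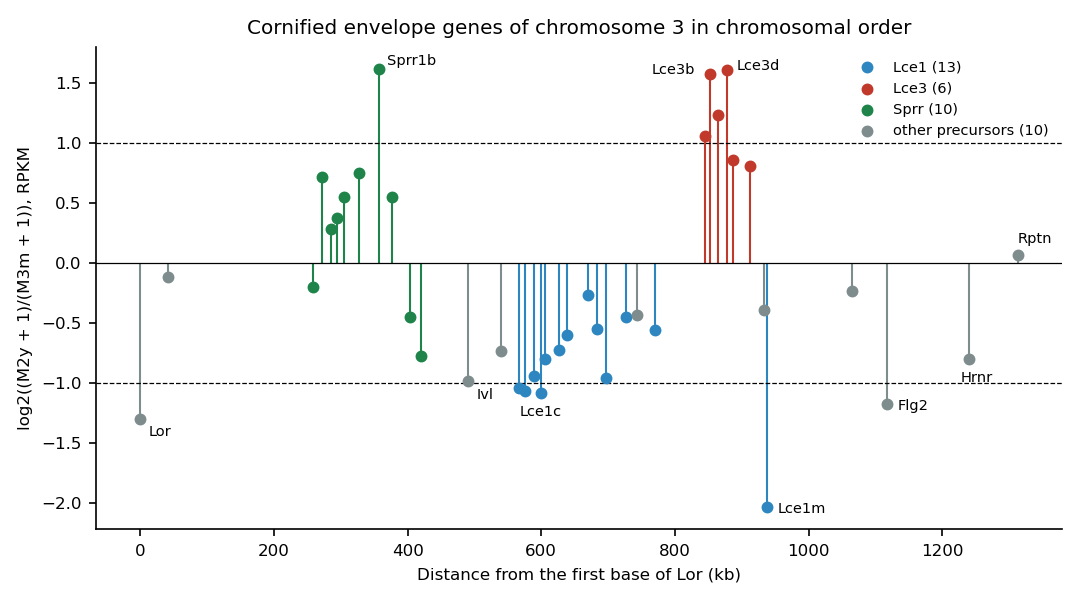
Log2 ratio of M2y over M3m for 39 cornified envelope genes of chromosome 3, by distance in kilobases from the first base of Lor; dashed lines mark 2-fold. The Lce1 genes (blue) all lie below 0 and the Lce3 genes (red), which stand between the last Lce1 genes, all lie above it.

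The living layers that feed the envelope were lower in M2y. Krt77, a keratin of suprabasal and sweat duct epithelium, had 3.29 RPKM in M2y and 15.7 RPKM in M3m, a log2 ratio of -1.96, and -1.32 with 5 RPKM added. Hal, the histidase that makes urocanic acid from filaggrin breakdown, had 2.32 RPKM in M2y and 7.02 RPKM in M3m, and Casp14, a protease of terminal differentiation, 8.98 RPKM in M2y and 18.97 RPKM in M3m, just short of 2-fold. Flg2, a filaggrin relative, had 1.38 RPKM in M2y and 4.37 RPKM in M3m. Of 35 analysed suprabasal genes 28 were lower and 9 at least 1.5-fold (1.38% of all analysed genes), with a median of -0.44. Their summed level was 8121 RPKM in M2y and 9455 RPKM in M3m, while the basal list had a median of -0.027. Krt10, the defining suprabasal keratin, had 512 RPKM in M2y and 625 RPKM in M3m. How far the amount of skin in each lid enters these values was not tested. Hair genes were slightly lower as a list, 40 of 51 with a median of -0.15. None was 2-fold lower, where 0.207% of all analysed genes were.

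The lipid genes of the meibomian gland were mostly lower in M2y by small amounts. None was 2-fold lower, where 0.207% of all analysed genes were. Of 72 analysed genes of 3 lists 12 were higher and 60 lower, where 47.0% of all analysed genes were higher. At least 1.5-fold lower were 9 of them (1.38% of all analysed genes), and the median was -0.30. These RNAs are abundant, and their sum was 16437 RPKM in M2y and 21919 RPKM in M3m. The desaturase Scd4 had 1099.8 RPKM in M2y and 1799 RPKM in M3m, and Elovl6, which lengthens fatty acids, 18.6 RPKM in M2y and 29.2 RPKM in M3m. Awat1, which makes wax esters, had 499.8 RPKM in M2y and 712 RPKM in M3m. Far2, which makes the fatty alcohols for them, had 312 RPKM in M2y and 458 RPKM in M3m. Gpam, which starts triglyceride synthesis, had 15.4 RPKM in M2y and 26.03 RPKM in M3m.

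Droplet proteins followed. Plin2, which coats lipid droplets, had 518 RPKM in M2y and 818 RPKM in M3m, and Cd36, a fatty acid carrier, 124 RPKM in M2y and 188 RPKM in M3m. Mc5r, a melanocortin receptor needed for sebaceous secretion in mice, had 1.60 RPKM in M2y and 3.72 RPKM in M3m, the largest log2 ratio of these lists in size (-0.86). Cholesterol synthesis, which also feeds the gland, was not lower as a list: 10 of 23 genes were higher and the median was -0.044. Acoxl, an acyl-CoA oxidase-like enzyme on no list, was at least 2-fold lower, with 13.5 RPKM in M2y and 33.8 RPKM in M3m, and Sptssb, a subunit of the enzyme that starts sphingolipid synthesis, was higher, with 170.3 RPKM in M2y and 82.9 RPKM in M3m. Adipocyte genes stood at a median of -0.017, although Car3, a carbonic anhydrase of fat and muscle, had 4.09 RPKM in M2y and 0.421 RPKM in M3m. Its log2 ratio of 1.84 was 0.75 with 5 RPKM added.

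Several classes linked to ageing had list medians close to 0. Proliferation genes had a median of 0.012 over 44 genes, senescence and p53 genes -0.0079 over 20, and glutathione and peroxide defence 0.034 over 44. No gene of these 3 lists was 2-fold apart. That absence says little, because the whole analysed set had shares of only 0.795% (higher side) and 0.207% (lower side). Of 23 listed senescence and p53 genes 3 were not analysed. Cdkn2a was listed at 0.323 RPKM in M2y and 1.40 RPKM in F2y, and not in M3m or F3m. Gdf15 had 0.635 RPKM in M2y and 0.608 RPKM in M3m, and Il6 was not listed. Cytosolic ribosome genes were slightly higher, 71 of 77 with a median of 0.12. Melanocyte genes were lower in 13 of 15, with Pmel, which builds the melanosome matrix, at 17.98 RPKM in M2y and 26.8 RPKM in M3m and Gpnmb, a related glycoprotein, at 16.7 RPKM in M2y and 31.7 RPKM in M3m. Clock genes were lower in 15 of 19; Dbp, a transcription factor of the clock output, had 33.8 RPKM in M2y and 49.9 RPKM in M3m and Rora, a nuclear receptor that drives Bmal1 transcription, 12.2 RPKM in M2y and 21.4 RPKM in M3m. Other lists were mixed. Insulin-like growth factor genes had a median of 0.10 over 16, with Igfbp7, a binding protein of vessel walls, at 18.96 RPKM in M2y and 10.4 RPKM in M3m, and Igfbp2, a related one, at 102 RPKM in M2y and 158 RPKM in M3m. Medians were 0.10 for Schwann and myelin genes (12 genes), -0.0095 for early response and heat shock genes (24), 0.073 for B and plasma cells (4) and -0.29 for mast cells, eosinophils and neutrophils (13). The hour at which the lids were taken is not stated.

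With 1 RPKM added, the largest higher log2 ratio belonged to a pseudogene. Gm7609, a transcribed unprocessed pseudogene (chromosome 1, 85199611 to 85213762), had 14.04 RPKM in M2y and 2.12 RPKM in M3m, a log2 ratio of 2.27, and shares 57.9% of its longest transcript with Gm15433. With 5 RPKM added its log2 ratio was 1.42, below those of Alox15 (1.92) and Sftpd (1.49). Gm12888, a protein-coding gene in GENCODE vM21, had 4.25 RPKM in M2y and 0.458 RPKM in M3m. At the lower end, the gene listed as Mir6236 (chromosome 9, 110281287 to 110281409) had 265 RPKM in M2y and 739 RPKM in M3m and Lars2, the mitochondrial leucyl-tRNA synthetase, 124 RPKM in M2y and 254 RPKM in M3m. Enzymes were among the other genes past 2-fold on no list. Akr1c18, a reductase that inactivates progesterone, had 61.5 RPKM in M2y and 26.6 RPKM in M3m, and Sult1c1, a sulfotransferase, 20.01 RPKM in M2y and 6.65 RPKM in M3m. Ecm1, a secreted matrix protein of skin, had 181 RPKM in M2y and 87.1 RPKM in M3m. All of these were higher in M2y, as was Ttc36 (25.6 RPKM in M2y and 9.82 RPKM in M3m), 50.8% of whose longest transcript is shared with Gm48702. On the lower side, Rps4l, annotated as a transcribed processed pseudogene of a ribosomal protein, had 9.80 RPKM in M2y and 26.7 RPKM in M3m. Adamts15, a secreted metalloprotease, had 1.25 RPKM in M2y and 3.94 RPKM in M3m.

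Just inside the 2-fold limit lay Fxyd1 (1.01) and Tmod4 (1.03) on the higher side and Lars2 (-1.03) and Msi1 (-1.03) on the lower side. Just outside lay Tspan1, with 188 RPKM in M2y and 93.4 RPKM in M3m on the higher side, and Casp14 and Dnajb3 (-0.98) on the lower side.

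Beside the male libraries, the female libraries stood farther apart from each other, with an SD over genes of 0.60. Of the same 12073 genes 5.30% were past 2-fold on the higher side in F2y and 3.31% on the lower side. Of the 96 genes higher in M2y, 67 were at least 2-fold higher in F2y as well (69.8% of the 96 and 10.5% of the 640 such female genes). Of the 25 lower genes 13 were at least 2-fold lower in F2y (52.0% of the 25 and 3.25% of 400). Muscle accounted for 32 of the 67, and its 72 genes had a median of 1.69 in the female libraries and 0.96 in the male ones. Acta1 had 275 RPKM in F2y and 44.4 RPKM in F3m. Lor had 3.02 RPKM in F2y and 173 RPKM in F3m and Krt77 0.398 RPKM in F2y and 101 RPKM in F3m, lower in the 2-year library of both sexes.

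Other groups stood on opposite sides in the 2 sexes. Conjunctiva and goblet genes had a median of -0.47 in the female libraries, interferon genes -0.85, and the 3 gland lipid lists 1.04. Psca had 66.5 RPKM in F2y and 679 RPKM in F3m, and Scd1 had 6123 RPKM in F2y and 1493 RPKM in F3m. The Lce3 genes had a female median of -2.62 and Lce3a had 1.71 RPKM in F2y and 66.8 RPKM in F3m, whereas the Lce1 genes were lower in the older library of both sexes (female median -2.60). With 1 library per age and sex, the difference between the male and female ratios was not tested, and sex and single library cannot be told apart.

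**Figure D5:**
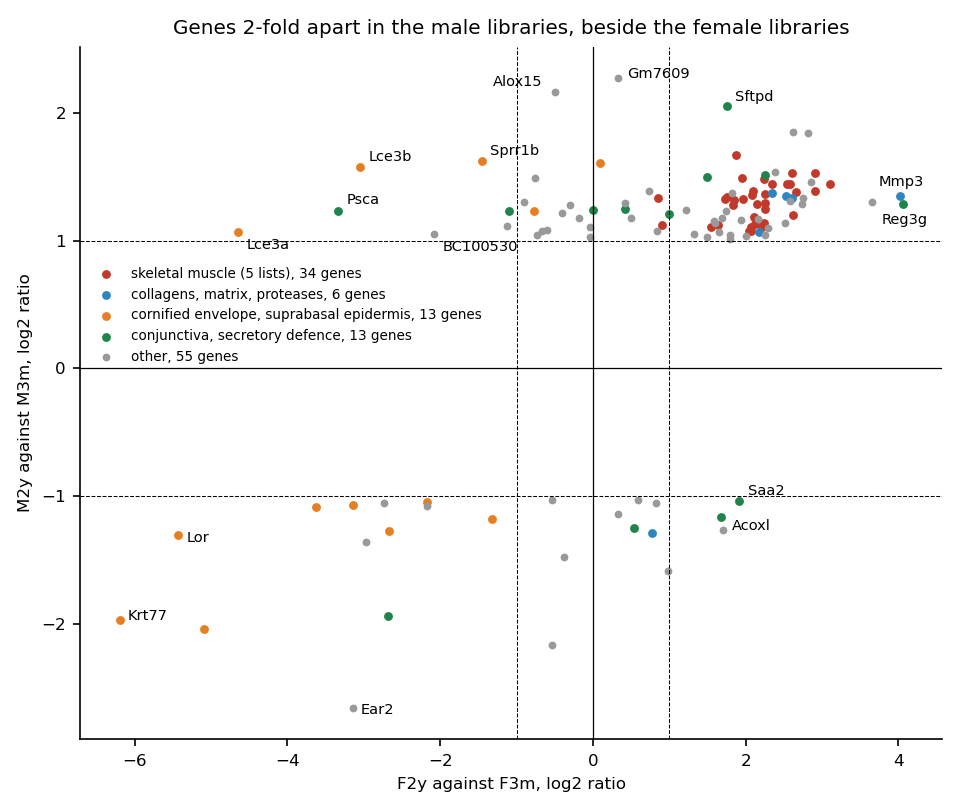
The 121 genes at least 2-fold apart between M2y and M3m, with the log2 ratio of M2y over M3m on the vertical axis and of F2y over F3m on the horizontal axis; dashed lines mark 2-fold and colours mark lists. Muscle genes (red) fall in the upper right, while Psca, Sprr1b, Lce3a and Lce3b fall in the upper left.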

How the data were processed

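The 4 libraries were grouped by age and sex from their titles, 1 library a group. Per the labels' protocols, lids were frozen, extracted on Qiagen columns and made into Illumina libraries; TopHat, Cufflinks and mm10 are named in the submitters' processing notes, without versions. Gene models, the counting rule and strandedness are not stated there. The authors deposited 1 table per library of genes at 0.125 RPKM or above. The deposited RPKM values are scaled to gene length and to the library's total. The second deposited column was read as summed base coverage (a signal, not reads), because it is proportional to RPKM times length with 1 factor per library (1.026 for M2y relative to M3m); read depth is unknown and no count test or interval is given.

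Computed here, with Python 3.11.15, pandas 2.3.3 and numpy 2.4.6, were log2 ratios with a pseudocount of 1 RPKM, counts past 2-fold and list medians; 2 symbols on more than 1 row were left out. The calculation was checked on simulated data. Members and gene lists were chosen with earlier results of these data known. Named are genes past 2-fold, up to 4 members per list with the largest ratio, the genes nearest the 2-fold limit and the tissue markers Scd1, Krt13, Krt4, Krt5 and Krt10; any other was chosen after its values were seen. The authors' tables of their own comparisons were not used here. Near-identical transcripts were sought in GENCODE vM21. Alternatives covered pseudocount, filter, scaling and fold.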

Additional observations from a re-analysis of the deposited data

Results flagged for a closer look

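Of the genes at least 2-fold apart between M2y and M3m, 10 were at least 2-fold apart in the opposite direction between F2y and F3m, which is why they are given here. The difference between the sexes was not tested, since each age and sex had 1 library. A total of 7 were higher in M2y than in M3m and lower in F2y than in F3m. Among envelope precursors these were Lce3a, with a log2 ratio of 1.06 in the male and -4.65 in the female libraries, Lce3b (1.58 and -3.05) and Sprr1b (1.62 and -1.46). Of the mucosal genes, Psca had 1.23 in the male and -3.33 in the female libraries, and Clca4 1.23 and -1.10. S100a2, a calcium-binding protein of epithelium, had 1.12 and -1.12, and the stefin BC100530 1.05 and -2.08.

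The other 3 were lower in M2y than in M3m and higher in F2y than in F3m. The acute-phase genes Saa1 and Saa2 had -1.16 and -1.04 in the male libraries and 1.67 and 1.92 in the female ones. Acoxl had -1.26 in the male and 1.71 in the female libraries. Saa1 had 5.21 RPKM in M2y and 12.9 RPKM in M3m, against 15.8 RPKM in F2y and 4.28 RPKM in F3m.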

How the results depend on the processing

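Counts moved with the pseudocount and with the fold required. With 0.1 RPKM added in place of 1 RPKM, 193 genes were at least 2-fold higher in M2y and 52 lower, and with 5 RPKM added 39 and 11. Rescaling RPKM to the same total in each library gave 52 lower genes (and 124 higher). At a fold of 1.5 the counts were 325 and 167, and at a fold of 3 they were 8 and 6. Under the remaining settings of filter, listing and scaling, 66 to 101 genes were higher and 19 to 28 lower. Of 256 genes compared across 9 settings, none changed sign; 53 values moved by more than 1.5-fold, 17 with 0.1 and 36 with 5 RPKM added. With 5 RPKM added, Actg2, Adamts15, Aqp1, Ccl8, Ccl11, Crisp3, Flg2, Gm12888, Mmp3, Mybpc1 and Tff2 were among those no longer past 2-fold. Of the list medians beyond 0.1 in size, that of the macrophage and Langerhans list changed sign, to 0.0089 over 32 genes without the filter on the mean, against -0.12. A further 10 lists with medians under 0.1 in size changed sign under some setting, and that of chemokines was 0.53 with a mean of at least 5 RPKM, against -0.049. No paired analysis was possible because each age and sex had 1 library and the labels give no replicate number; leaving out a replicate was impossible for the same reason. Read depth is unknown, and low genes such as Sln, Tff2 and Ccl11 rest on little coverage.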

Other observations

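Some genes of the male libraries lay outside the 12073 analysed because a female table did not list them or their mean was below 1 RPKM; they were chosen after their values were seen. Scgb2b20, a secretoglobin, had 5.54 RPKM in M2y and 0.226 RPKM in M3m, on a coverage of 12552 bases in M2y and 500 bases in M3m. Chil4, a chitinase-like protein of mouse mucosa, had 10.4 RPKM in M2y and 1.40 RPKM in M3m. Erdr1, which the tables place on the Y chromosome, had 5.72 RPKM in M2y and 0.510 RPKM in M3m. Sprr2b, a small proline-rich envelope precursor, went the other way, with 1.06 RPKM in M2y and 4.12 RPKM in M3m.

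M2y listed 428 genes that M3m did not, 2 of them at 1 RPKM or more. These were Cxcl13, the chemokine that attracts B cells, at 1.87 RPKM, and Myl2, the myosin light chain of slow and cardiac muscle, at 1.04 RPKM. M3m listed 314 genes that M2y did not, of which 1 reached 1 RPKM. Most genes listed in 1 male library and not the other were thus near the lowest value the tables list, with a median of 0.184 RPKM in M2y and 0.169 RPKM in M3m.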
